A study of Caenorhabditis elegans with 6 samples.

Results

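ADARs are enzymes that edit adenosine to inosine (A-to-I). They bind double-stranded RNA and deaminate adenosines within it. Inosine pairs like guanosine, so an edited position is read as G where the genome has A. In C. elegans, ADR-2 is the only ADAR with deaminase activity, and long double-stranded structures in the 3′ untranslated regions (3′ UTRs) of mRNAs are a known class of its targets. The set described here holds the reproducible editing sites on chromosome III in germline mRNA. A site was a member if its confidence reached 0.75 in each of 3 wild-type replicates and if it was not listed at any confidence for adr-2(-) germlines. Of 1012 such sites in the genome, 246 (24.3%) lay on chromosome III. They fell in 24 of the 71 edited genes, with 6 sites between genes.

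Poly(A)-selected RNA came from germlines dissected from synchronized young adults (60 h after egg-lay). The wild type was the N2 strain, and adr-2(-) animals carried the ok735 deletion in every cell, not in the germline alone. There were 3 libraries of each strain, and editing calls were given for each wild-type library and as 1 merged list for adr-2(-), which therefore has no spread. The replicates were biological, but the labels do not say how many animals each one pooled.

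The libraries held between 44991286 and 96397215 reads on genes in wild type, the deepest being replicate 2, and between 33658937 and 38310069 in adr-2(-). All 10 germline marker genes were present, with summed normalized counts of 532231 to 555691 in wild type and 481967 to 553409 in adr-2(-). The library of adr-2(-) replicate 1 stood apart. The summed normalized counts of 4 muscle genes were 11992 there, against 2231 and 1353 in adr-2(-) replicates 2 and 3 and 1421 to 2016 in wild type. For 4 intestine genes they were 7750, against 1203 and 975 in adr-2(-) replicates 2 and 3 and 899 to 1622 in wild type. adr-2 itself, which lies on chromosome III too, had normalized counts of 3020, 2822 and 2852 in the wild-type libraries, replicates 1 to 3, against 29.2, 61.0 and 35.6 in the mutant. The DNA sequence around the sites was not used here.

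The sites were crowded towards the right end of the chromosome and inside a small number of 3′ UTRs. Of the 246 sites, 182 (74.0%) lay at or beyond position 12000000, a round position and not an annotated boundary. They were in 10 of the 24 edited genes and the 1 group between genes, with 50 of them in gmn-1 alone. That part of the chromosome holds 268 of its 2640 annotated protein-coding genes (10.2%). The 16 edited genes on the plus strand held 132 sites in genes and 6 more lay between genes on that strand, and the 8 edited genes on the minus strand held 108. By the deposited regions, 233 sites were in 3′ UTRs, which is 94.7% (95% exact binomial interval 91.1% to 97.2%). On the other chromosomes 647 of 766 sites were, or 84.5% (81.7% to 87.0%). These intervals cover counting error only, and sites of 1 gene share their transcript. There were 0 sites in coding sequence and 0 in 5′ UTRs, against 4 and 17 on the other chromosomes. The share in 3′ UTRs was 86.9% without wild-type replicate 1, when the confidence minimum was asked of the other 2 replicates alone.

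The 13 sites outside the deposited 3′ UTRs were of 4 kinds. Of 6 sites deposited as intronic, 4 were in spin-4, at positions the Ensembl annotation places in its 3′ UTR. The other 2 were in an intron of Y49E10.21 and had between 6 and 19 reads in each replicate. A single site lay in an exon of the pseudogene WBGene00206459, edited in 5.21%, 4.90% and 8.70% of reads in replicates 1, 2 and 3. The 6 sites between genes spanned 46 nt, from 12698875 to 12698920 on the plus strand. They lie after the end of spin-4, a member of the spinster family of transporters, and before the start of sas-1, a gene needed for stable centrioles. Editing at 12698887 in that group was 67.7%, 79.9% and 77.1%, while the adjacent adenosine at 12698886 was edited at 23.96%, 24.7% and 20.0%.

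The edited genes had long 3′ UTRs, a property the selection did not use. Over the 23 edited protein-coding genes, the longest annotated 3′ UTR had a median of 849 nt, from 419 nt in eelo-1 to 1334 nt in unc-16. The median was 163 nt over 1686 other protein-coding genes of chromosome III that had an annotated 3′ UTR and a mean of at least 10 normalized counts in these libraries, with an upper quartile of 313 nt. A 3′ UTR of at least 500 nt was annotated for 21 of the 23 edited genes and for 13.05% of those other genes. A long 3′ UTR also offers more adenosines, and the part this plays was not tested. The other genes were not matched for expression. Among edited protein-coding genes with expression values, the lowest wild-type mean was 2220 normalized counts, in F40G9.17. Of the sites, 232 could be placed in these 3′ UTRs, and their median position was 38.1% of the way from the stop codon to the end. The number of sites did not follow the length: gmn-1 with 50 sites had 737 nt, whereas unc-16, aakb-2 and Y39A1A.22 had 1 site each and 1334, 1117 and 1196 nt. The unc-16 site is in the 3′ UTR of another transcript than the one with the longest.

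**Figure D1:**
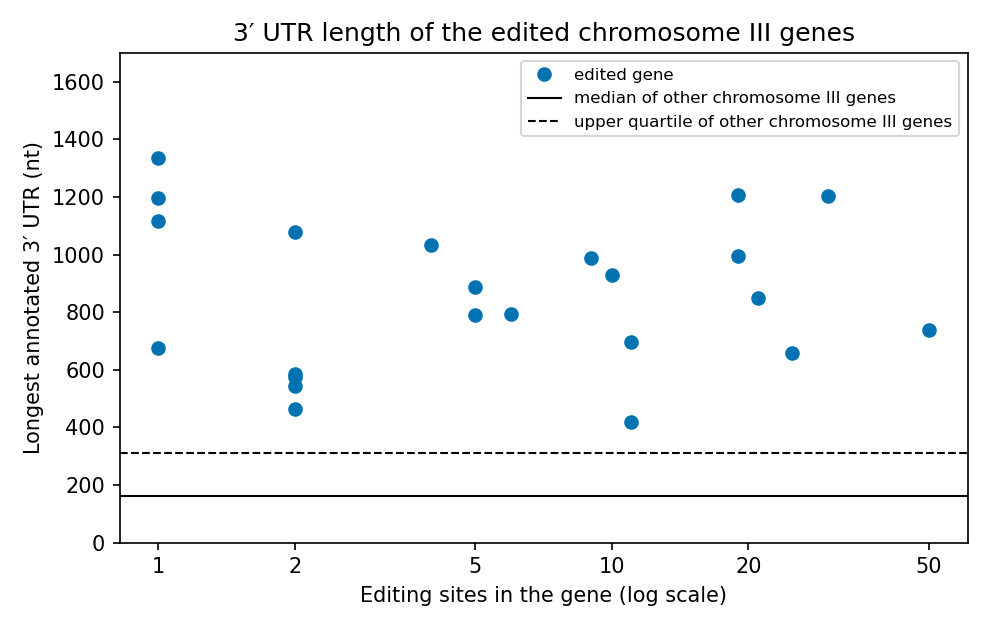
Longest annotated 3′ UTR (nt) of each of the 23 edited protein-coding genes against its number of editing sites (log scale); horizontal lines give the median (163 nt) and upper quartile (313 nt) of 1686 other chromosome III genes. Every edited gene lies above the upper quartile of the others, and the length does not rise with the number of sites.

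The selection used confidence, which rises with the edited share and, at a fixed share above 1%, with depth. With 1 edited read it falls with depth: it was 0.914 at 10 reads (12460754, replicate 2) and 0.755 at 29 reads (12671372, replicate 3). The levels of percent editing that follow therefore describe the chosen sites. Confidence here equals the probability, from the edited and unedited reads of a position, that more than 1% of its molecules are edited. The median percent editing over the 246 sites was 24.2%, 20.8% and 24.6% in replicates 1, 2 and 3, or 23.2% ± 2.09 (SD, n = 3). On the other chromosomes it was 25.6%, 23.2% and 25%. The chromosome III median was thus the lower one in each replicate, although the ranges over replicates overlapped. This difference was not tested. Averaged over replicates, sites ran from 1.85% to 90.9%, with quartiles of 11.5% and 43.8%. Editing was at least 50% at 42 sites and under 5% at 14. Depth was modest and uneven: the median coverage of the sites was 57, 120.5 and 42 reads in replicates 1, 2 and 3, with extremes of 5 and 1926, and 191 of the sites had at least 20 reads in every replicate. Over those 191 the median was 18.8%.

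Sites close to the confidence minimum rested on few edited reads. The 3 just inside were at 12671372 in taf-7.2 (lowest confidence 0.755), at 12698875 between genes (0.762) and at 12697818 in spin-4 (0.769), and the first of these had 1 edited read of 29 in replicate 3. The 3 just outside were at 9551962 in unc-16 (0.744), at 13142624 in Y39E4B.10 (0.740) and at 12697767 in spin-4 (0.736). The excluded Y39E4B.10 position was edited at 36.5% and 40.5% in replicates 1 and 2 and had 1 edited read of 31 in replicate 3. The number of members depended on which replicates had to reach the minimum: it was 391 without replicate 3 and 525 when any 2 of the 3 were enough.

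Of the 24 genes, 10 held at least 8 sites each and 205 sites together, 9 held 2 to 7, and 5 held 1. gmn-1 encodes geminin, which restrains the licensing of DNA replication. It had the most sites, 50, all in its 3′ UTR between 12224034 and 12224611 on the minus strand (the gene spans 12223896 to 12225331, WBcel235). Their mean percent editing was 30.9%, 27.8% and 31.1% in replicates 1, 2 and 3. Adding the edited shares of the 50 sites gives an average of 15.5, 13.9 and 15.6 edited adenosines per transcript, if every transcript holds all of them. The averages also assume that edited and unedited molecules yield reads alike, which was not tested. These values count the 50 sites alone and leave out 15 gmn-1 positions removed because they were also listed for adr-2(-). Single sites in gmn-1 ranged from 2.73% to 90.4%, and 7 of them reached 50%.

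The next genes by number of sites were Y111B2A.12, Y75B8A.7 and taf-7.2. Y111B2A.12 had 30 sites between 12622918 and 12623411 on the plus strand, with mean percent editing of 33.2%, 26.3% and 30.7% in replicates 1, 2 and 3. Y75B8A.7 had 25 sites between 12159700 and 12160185 on the plus strand, with 37.3%, 33.7% and 29.0%. taf-7.2, a subunit of the general transcription factor TFIID, had 21 sites between 12671205 and 12671463 on the minus strand, with 29.5%, 21.9% and 25.1%. The mean of taf-7.2 depended on depth: it was 25.5% over all 21 sites and 15.5% over the 14 with at least 20 reads in every replicate. In all 3 genes replicate 1 had the highest mean, but which of the other replicates was lowest differed between them.

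F48E8.4 and Y39E4B.10 had 19 sites each. Mean percent editing in F48E8.4 was 37.4%, 34.4% and 37.9% in replicates 1, 2 and 3. In Y39E4B.10 it was 29.1%, 29.97% and 36.6%. Of the F48E8.4 sites, 4 lie at 5460899 to 5460934, past the annotated end of the gene at 5460347, although they were deposited as its 3′ UTR. Fewer sites were found in eelo-1 (11), Y49E10.21 (11), spin-4 (10) and F40G9.17 (9). Their mean percent editing was 28.1%, 24.6% and 22.2% in eelo-1, 19.3%, 22.9% and 22.1% in Y49E10.21, 30.9%, 35.6% and 37.8% in spin-4, and 36.3%, 31.5% and 44.3% in F40G9.17. Averaged over replicates, the 10 genes lay between 21.5% and 37.3%, a range narrow beside that of the sites within any 1 of them.

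**Figure D2:**
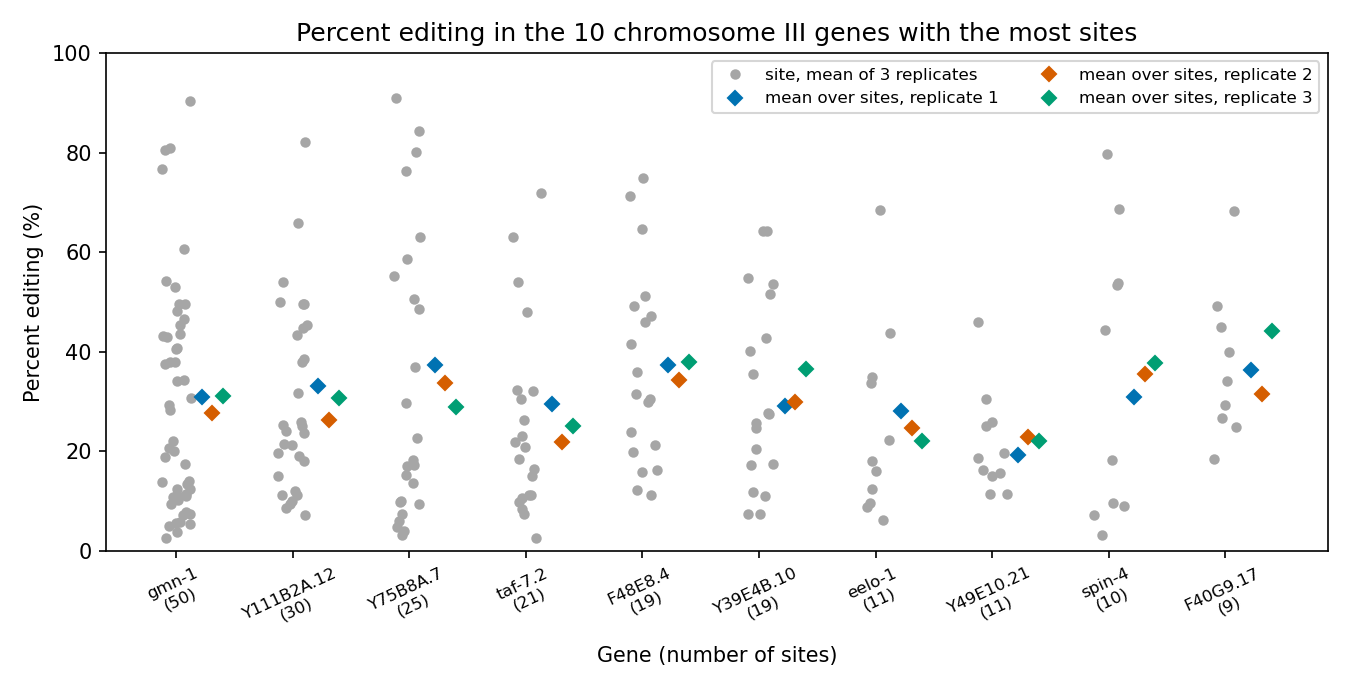
Percent editing of each site (grey points, mean of 3 wild-type replicates) in the 10 genes with at least 8 sites, and the mean over the gene's sites in each replicate (diamonds). Gene means lie between 19.3% and 44.3% in single replicates, while sites of gmn-1 spread from 2.73% to 90.4%.

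The remaining genes had few sites and ran from nearly unedited to highly edited. exos-4.2, a component of the RNA exosome, was the lowest with more than 1 site: its 4 sites averaged 2.62%, 3.32% and 3.48% in replicates 1, 2 and 3. The single site of pph-6, the catalytic subunit of protein phosphatase 6, was edited at 1.86%, 1.86% and 4.08%, and that of aakb-2, a beta subunit of AMP-activated kinase, at 7.21%, 1.85% and 5.93%. The single sites of unc-16, a JIP3 scaffold for axonal transport, and of Y39A1A.22 averaged 20.4% and 12.9%. At the other end, sas-1 averaged 47.1%, 45.9% and 42.3% over 2 sites. ssl-1, a SWI2/SNF2-like chromatin remodeller, had 6 sites with means of 27.5%, 35.5% and 44.9%. ttc-7 (5 sites) averaged 28.3% ± 4.91 (SD, n = 3), and set-27, which encodes a SET domain protein (5 sites), averaged 17.6% ± 1.97 (SD, n = 3). Averages over replicates for the 2 sites each of M01F1.9, hat-1 (a histone acetyltransferase) and Y75B8A.8 were 15.2%, 12.2% and 37.1%. The 2 sites of Y56A3A.28 averaged 69.2%, 25.6% and 33.3%, the widest spread of any gene, and had fewer than 20 reads in at least 1 replicate.

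Genes with sites were close neighbours in places. Y75B8A.7 and Y75B8A.8 follow each other on the plus strand, the first ending at 12160255 and the second starting at 12160758. spin-4, the group of sites between genes, sas-1 and ssl-1 follow one another on the plus strand between 12688318 and 12744721, with 24 sites in all.

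The most edited sites averaged from 79.8% to 90.9%. With 20 reads or more required in each replicate, the highest was 12159731 in Y75B8A.7, with 94.9%, 94.7% and 83.1%. Next was 12224410 in gmn-1, with 89.1%, 85.6% and 96.7%. The other 6 of the 8 highest were 12159742 in Y75B8A.7 (84.3% on average), 12623321 in Y111B2A.12 (82.1%), 12710723 in sas-1 (81.7%), 12224192 and 12224448 in gmn-1 (80.8% and 80.4%) and 12697984 in spin-4 (79.8%). Their SDs over replicates ran from 4.76 to 14.1 percentage points, and 4 of the 8 differed between some pair of replicates by Fisher's exact test, adjusted over all 1012 sites (12224410, 12159742, 12224448 and 12697984). The last of these was edited at 90.5%, 85.0% and 63.8%.

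Sites came in groups, often in pairs of groups assigned to 1 gene. Of the 246 sites, 233 (94.7%) had another site within 50 nt on the same strand, against 97.1% on the other chromosomes. Joining sites up to 50 nt apart gave 42 clusters, of which 13 were single sites and 8 had at least 10 sites. Those 8 held 140 sites. In 6 of the 10 genes with at least 8 sites there were 2 clusters of at least 4 sites. In gmn-1, clusters of 29 and 21 sites spanned 249 and 203 nt and lay 127 nt apart. In Y111B2A.12, clusters of 16 and 13 sites spanned 105 and 154 nt, with 1 more site between them. taf-7.2 had clusters of 14 and 7 sites that lay 105 nt apart, and eelo-1 had clusters of 5 and 6 sites 107 nt apart. In Y75B8A.7, clusters of 18 and 7 sites lay 290 nt apart, and in F48E8.4 clusters of 15 and 4 sites lay 1231 nt apart. The 4-site cluster of F48E8.4 lies past the annotated end of the gene. F40G9.17 had a single cluster of 9 sites within 79 nt.

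The clusters of a pair were not edited alike in every gene. In taf-7.2 the median site of the 7-site cluster was edited at 48.0% and that of the 14-site cluster at 13.2%. In Y75B8A.7 the medians were 50.6% in the 7-site cluster and 17.1% in the 18-site cluster. In Y111B2A.12 they were 25.3% and 23.7%, and in gmn-1 22.0% and 30.8%. In spin-4, 2 sites had a median of 6.17% and the other 8 sites had 48.9%. Depth was uneven within the 2 genes of the sharpest contrasts with larger clusters. With at least 20 reads required in every replicate, taf-7.2 kept 14 sites and its mean fell from 25.5% to 15.5%. Y75B8A.7 kept 20 sites and its mean fell from 33.3% to 27.6%. The part depth plays in the contrasts between clusters was not tested.

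Editing also differed sharply between directly adjacent adenosines. There were 46 such pairs in 15 genes or groups, and the members of a pair differed by a median of 15.5 percentage points and by at most 59.7. The extreme pair was in gmn-1, where 12224410 was edited at 89.1%, 85.6% and 96.7% and its 3′ neighbour 12224409 at 28.1%, 22.4% and 41.8% in replicates 1, 2 and 3. In Y75B8A.7 the order was the other way round, with 32.8%, 20.0% and 36.4% at 12160126 and 83.6%, 84.3% and 72.7% at its 3′ neighbour 12160127. The replicates did not overlap in either pair. Over the 46 pairs, the 5′ adenosine was higher in 24 and the 3′ one in 22, and in 16 and 15 of these, respectively, all 3 replicates had the same order.

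Replicates gave similar profiles, with a sizeable group of sites that differed by more than counting error. Across the 246 sites, Pearson's r of percent editing was 0.83 (replicates 1 and 2), 0.75 (1 with 3) and 0.80 (2 with 3). These describe sites that share transcripts and reads, not independent points. By Fisher's exact test of edited and unedited reads, adjusted over all 1012 sites, 36 sites on chromosome III differed between replicates 1 and 2 (background over all sites, 15.4%). Between replicates 1 and 3 there were 32 (15.3%), and between 2 and 3 there were 19 (9.98%). Altogether 65 of the 246 (26.4%) differed between some pair of replicates, near the share of all sites (28.2%). Of the 36, 24 were higher in replicate 1. Of the 32, 16 were higher in each replicate, and of the 19, 13 were higher in replicate 3. No replicate was thus the higher one throughout, but replicate 2 was the lower one at most differing sites in both its comparisons. On the other chromosomes 79 of 120 were higher in replicate 1 than in replicate 2, and 59 of 82 higher in replicate 3 than in replicate 2.

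The sites that differed were in 15 genes and the group between genes. gmn-1 held 22 of the 65, 6 were in Y75B8A.7, 5 each in taf-7.2 and Y49E10.21, and 4 each in Y111B2A.12, eelo-1 and spin-4. F40G9.17 held 0 of its 9. Such calls depend on depth: median coverage in replicates 1, 2 and 3 was 16, 76 and 30 reads in F40G9.17 and 127, 370 and 175 in gmn-1. The F40G9.17 site at 200584 differed by -50.5 points uncalled (replicate 2 minus replicate 3, adjusted p = 0.066, Fisher's exact test). The gmn-1 site at 12224034 was called at 3.96 points (replicate 1 minus replicate 2). In gmn-1 the site at 12224468 had a difference of -40.9 percentage points (replicate 2 minus replicate 3, adjusted p = 1.2e-14, Fisher's exact test). The site at 12224464 was 27.5 points higher in replicate 1 than in replicate 2 (adjusted p = 5.7e-05, Fisher's exact test). In eelo-1 all 4 differing sites were higher in replicate 1 than in replicate 2, whereas in Y39E4B.10 all 3 were higher in replicate 3 than in replicate 1. The largest of these, at 13142647 in Y39E4B.10, had a difference of -73.0 points (replicate 1 minus replicate 3, adjusted p = 3.2e-09, Fisher's exact test). Sites of 1 transcript share reads, and the test takes reads as independent.

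The selection also dropped strongly edited positions of the same genes. On chromosome III, 272 sites reached the confidence minimum in all 3 replicates, and 26 of them were removed because they were also listed for adr-2(-). All 26 were in genes that kept other sites, 15 of them in gmn-1. In wild type they were edited at a median of 41.2%, from 3.82% to 92.2%. In adr-2(-) the same positions had a median edited share of 0.237% and at most 0.909%. The adr-2(-) listing rested on 1 read at 15 of the 26 and on at most 4 reads at any, with a median coverage of 650 and confidences up to 0.334. In gmn-1, for example, 12224145 was edited at 91.5%, 95.3% and 89.7% in wild type and in 2 of 942 reads in adr-2(-). Adding the 15 gives gmn-1 65 positions that reached the minimum in all wild-type replicates.

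**Figure D3:**
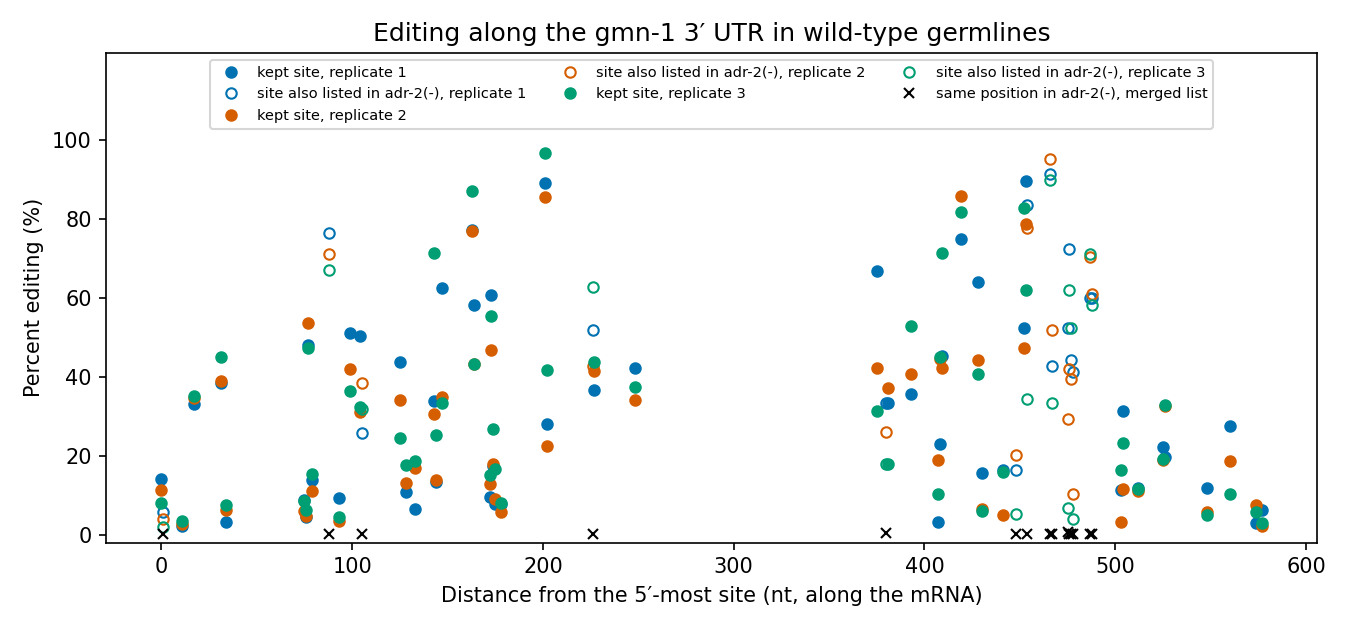
Percent editing along the gmn-1 3′ UTR in the 3 wild-type replicates, by distance (nt) from the 5′-most site along the mRNA. Filled circles are the 50 kept sites, open circles the 15 sites also listed for adr-2(-), and crosses the adr-2(-) values at those 15 positions, which are at most 0.566%; editing falls in 2 stretches with a gap of 127 nt.

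For the kept sites the adr-2(-) list gives no depth, since it holds only positions with an edited read. For 108 of the 246, another position within 25 nt was listed, with a median depth of 588 reads (11 to 2130). A count of 0 at the median depth allows an edited share of up to 0.510%. For the other 138 the depth in adr-2(-) is unknown here.

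Within the stretches that held sites, many other adenosines were listed in wild type at lower confidence. In the gmn-1 stretch, 127 positions were listed in at least 1 replicate. Besides the 50 members and the 15 also listed for adr-2(-), 21 reached the minimum in 2 replicates and 41 in 1 or 0. In F48E8.4, 114 positions were listed, of which 19 were members and 34 reached the minimum in 2 replicates. In spin-4, by contrast, 10 of 20 listed positions were members and 1 reached the minimum in 2 replicates.

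Read depth beside the sites was compared between the strains. Of the 10 genes with at least 8 sites, 7 had a lower relative depth in every wild-type replicate than in adr-2(-), 2 had a higher one and 1 had no adr-2(-) value. This was measured as the median depth of listed positions within 25 nt of a site over the median depth of listed positions in the gene's coding sequence. The positions listed were not the same in the strains, so the ratios compare partly unlike positions. In taf-7.2 there were 32, 51 and 37 beside sites in wild-type replicates 1, 2 and 3, and 3 in adr-2(-). At 12671438, a taf-7.2 position listed in both strains, summed wild-type coverage was 565 reads and adr-2(-) coverage 588. The gene itself had 1.52 times as many reads in wild type. In gmn-1 the ratio was 0.266, 0.370 and 0.328 in wild-type replicates 1, 2 and 3 and 0.706 in adr-2(-). In Y111B2A.12 it was 0.130, 0.161 and 0.106 against 0.925, and in taf-7.2 0.133, 0.0647 and 0.0806 against 1.01. In every wild-type replicate of these genes the ratio was below that of adr-2(-). Y39E4B.10, with 0.520, 0.356 and 0.199 against 0.753, and eelo-1, with 0.302, 0.365 and 0.323 against 0.614, had the same order. exos-4.2, the least edited of the genes with several sites, had 1.62, 1.59 and 1.11 against 1.54. A further 11 genes had 1 or 2 adr-2(-) positions beside their sites. In 6 of these all wild-type ratios were below the adr-2(-) one, in 3 they lay on both sides of it, and in 2 they were all above. The 2 were Y75B8A.7 and F48E8.4, which hold 25 and 19 sites and rested on 1 adr-2(-) position each. They had lower ratios in adr-2(-) (0.118 and 0.0268) than in any wild-type replicate. The F48E8.4 position had 11 reads and lay 19 nt from the site at 5460934, past the annotated end of the gene. The wild-type values of F48E8.4 came from 40, 52 and 32 positions in replicates 1, 2 and 3.

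**Figure D4:**
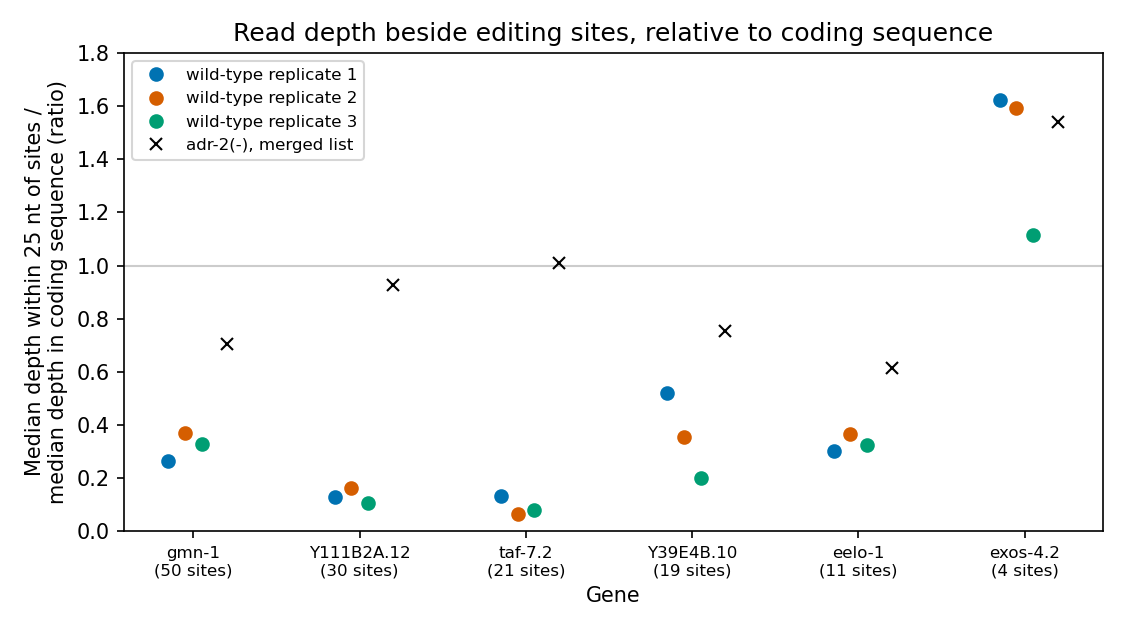
Median read depth of listed positions within 25 nt of an editing site divided by the median depth of listed positions in the coding sequence of the same gene, for the 6 genes with at least 3 such positions in the merged adr-2(-) list (crosses); circles are wild-type replicates. In 5 genes all wild-type values lie below the adr-2(-) value, and in exos-4.2 they lie from 1.11 to 1.62 around 1.54. The listed positions are not all the same in wild type and adr-2(-).

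Depth was also compared at positions listed in both strains, where wild type was relatively lower at 24 of 27. At these positions within 25 nt of a site, in 8 genes, the summed wild-type coverage over adr-2(-) coverage, divided by the same ratio of the gene's reads, had a median of 0.300 (0.0936 to 2.95). At 15 such positions in gmn-1 the median was 0.171, with a median summed coverage of 204 reads in wild type and 679 in adr-2(-), although gmn-1 had 1.58 times as many reads in wild type. Where the mean edited shares of sites within 25 nt added up to at least 2, the median was 0.172 over 14 positions, 13 of them in gmn-1. Where they added up to less than 1, it was 0.802 over 7. Those 7 held both the lowest and the highest of the 27 ratios, 0.0936 in Y39E4B.10 and 2.95 in Y75B8A.7. The groups also differ in which genes they hold, so the part of editing alone was not tested. A position enters the lists only with at least 1 edited read, which favours deep positions where editing is absent. The part this plays in the ratios was not tested, and the comparison was chosen after the data had been seen.

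The mRNA level of the edited genes was compared between the strains, with log2 fold changes given as adr-2(-) minus wild type on the log2(normalized count + 1) scale. In bulk RNA, fewer cells of a type and less RNA per cell cannot be told apart. Expression values of 22 of the 24 genes were used and each was tested, while ttc-7 and Y39A1A.22 were not analysed here. A gene was called if its adjusted p was 0.05 or less and the strains differed by 0.5 or more on the log2 scale. By this rule 0 of the 22 were called (background, 0.297% of 9779 genes, limma). DESeq2 and edgeR on recovered reads also called 0 (backgrounds 1.31% and 0.199%). The limma p-value was under 0.05 before adjustment for 5 of them (background, 12.5%). Their log2 fold changes ran from -0.20 to 0.39, with a median of 0.06, against 0.00 over all genes tested. The median absolute change was 0.10, against 0.14 over all genes, and 14 of the 22 were higher in adr-2(-).

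The gene furthest from 0 was Y39E4B.10. The N2 libraries (replicates 1, 2, 3, as in the genes that follow) held 2660, 2455 and 2309 normalized counts of it, and the mutant libraries 3368, 3139 and 3186, so every adr-2(-) library was above every wild-type one. The difference was 0.39 ± 0.07 (log2 fold change ± standard error, limma adjusted p = 0.098), below the size needed for a call. Its adjusted p over the alternatives ran from 0.0022, by DESeq2, to 0.39.

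A further 3 genes with p under 0.05 before adjustment were higher in adr-2(-). Y111B2A.12 had 5552, 5569 and 4569 normalized counts in N2 against 7011, 5945 and 6152 in the mutant. Y56A3A.28 had 2728, 2611 and 2771 against 3477, 3045 and 3383, and Y49E10.21 had 3535, 3576 and 3344 against 4244, 3765 and 4180. Their log2 fold changes were 0.29, 0.29 and 0.22, with standard errors of 0.09, 0.07 and 0.07 and adjusted p-values of 0.28, 0.17 and 0.27 (limma). For Y56A3A.28 the DESeq2 adjusted p was 0.037. The fifth gene, eelo-1, was lower in adr-2(-), with 5087, 5629 and 5416 in N2 against 4782, 4618 and 4634 in the mutant (log2 fold change -0.20, standard error 0.06, adjusted p = 0.26, limma). In these 5 genes the groups did not overlap. The same held for exos-4.2 and unc-16, which makes 7 of 22 (background, 18.8%).

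Among the genes with the most sites, Y111B2A.12 (30 sites) and Y39E4B.10 (19 sites) had the differences given above, and the others were closer to 0. gmn-1 had 4376, 4766 and 5304 normalized counts in N2 against 5048, 5325 and 5103 in the mutant (log2 fold change 0.10 ± 0.08, standard error, limma adjusted p = 0.61). Y75B8A.7 had 9916, 9387 and 8383 against 10673, 8053 and 8707, with a log2 fold change of -0.02. taf-7.2 had 2563, 2496 and 2916 against 2768, 2882 and 3078, with 0.13. The groups overlapped in these 3 genes. They also overlapped in F48E8.4, spin-4 and F40G9.17, whose log2 fold changes were 0.06, -0.06 and 0.07. The remaining genes had log2 fold changes between -0.12 and 0.13. Across the 22 genes, Spearman's rho with the log2 fold change was 0.21 for the number of sites and 0.09 for the mean percent editing (Pearson's r 0.28 and 0.20), a description over genes of the same 6 libraries.

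**Figure D5:**
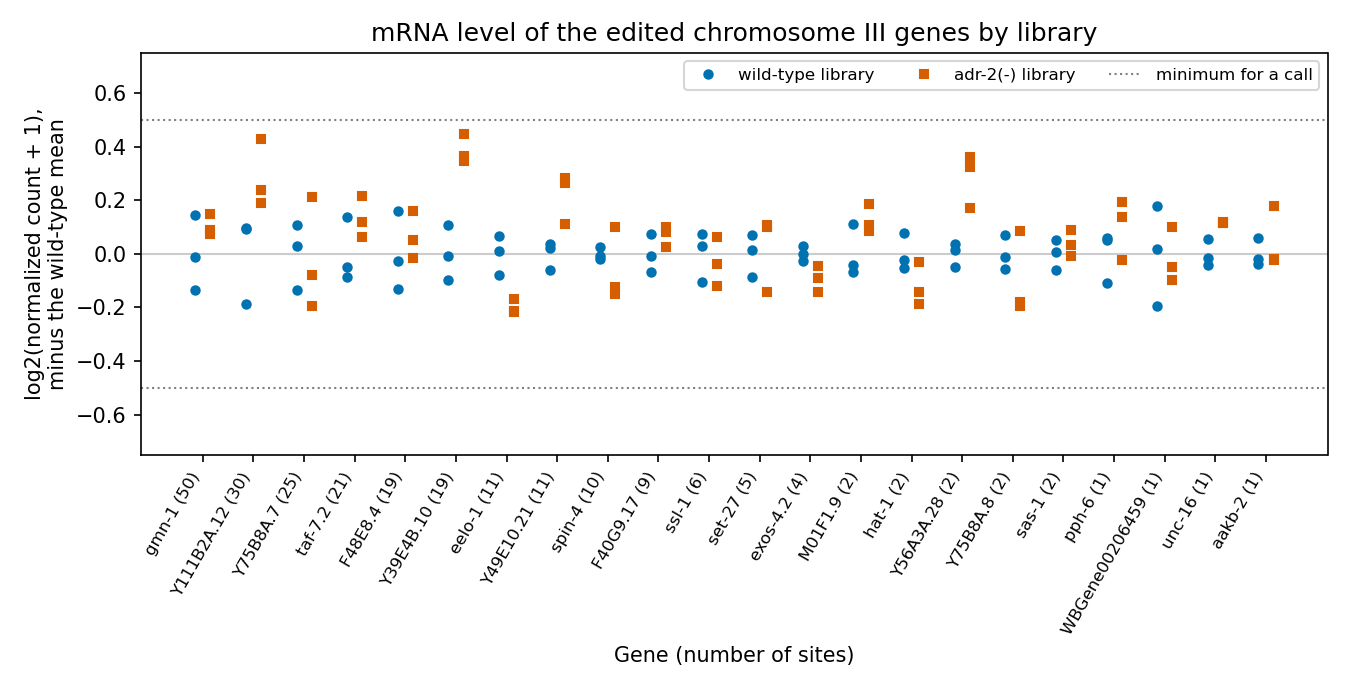
log2(normalized count + 1) of the 22 edited chromosome III genes in each library, minus the mean of the 3 wild-type libraries (circles, wild type; squares, adr-2(-)); genes are ordered by number of sites, in brackets, and dotted lines mark a log2 difference of 0.5, the minimum for a call. The largest mean difference is 0.39, in Y39E4B.10, and no library of any gene passes a dotted line.

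Without adr-2(-) replicate 1, the library with high muscle and intestine genes, 0 of the 22 genes were called by limma, against 37 over all genes tested, and their median log2 fold change was 0.05. That library had the highest count for 9 of the 22: Y111B2A.12, Y75B8A.7, F48E8.4, Y39E4B.10, Y49E10.21, F40G9.17, set-27, Y56A3A.28 and unc-16. Without it the log2 fold changes of Y39E4B.10, Y56A3A.28, Y111B2A.12 and Y49E10.21 were 0.36, 0.25, 0.22 and 0.19. The normalized counts of set-27 and hat-1 may include reads of genes that overlap their sites (cox-6B and M03C11.3), since how reads were counted per gene is not given in the sources used here. Whether the depth beside the sites bears on the gene counts was not tested.

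Genes of double-stranded RNA and small RNA pathways, only some of which act on double-stranded RNA as ADARs do, were compared in the same way. Of a list of 30 such genes, 29 were tested, and adr-2 was the only one of the list called (log2 fold change -6.15, standard error 0.24, adjusted p = 5.45e-06, limma), by DESeq2 and edgeR as well (background for limma, 0.297%). The limma p-value was under 0.05 before adjustment for 3 (10.3%, below the background of 12.5%), namely adr-2, rde-11, an RNA interference factor (log2 fold change 0.26, adjusted p = 0.21), and eri-5, a partner of Dicer in endogenous RNA interference (-0.28, adjusted p = 0.28). dcr-1, which encodes Dicer, had 0.01 (standard error 0.06), and rde-4, which encodes its double-stranded RNA-binding partner, had -0.03 (standard error 0.07). csr-1, a germline Argonaute, had 0.00 (standard error 0.08). Apart from adr-2, log2 fold changes ran from -0.29 to 0.45, both extremes being Argonaute genes, alg-4 and alg-3, with standard errors of 1.02 and 1.55.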

How the data were processed

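RNA of germlines from 3 wild-type (N2) and 3 adr-2(ok735) replicates was analysed. The authors aligned stranded poly(A) reads to WS275 with STAR 2.7.10b (submitters' processing notes) and called editing with SAILOR. The deposited site lists give each position's coverage and edited share, with a confidence score, and the deposited expression values are a normalized signal, gene counts divided by 1 factor per library. The deposited table also holds the authors' DESeq2 fold changes and p-values, which were not used.

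Sites were matched by chromosome, position and strand. Positions are as deposited, counted from 1, and gene ends, 3′ UTRs and names came from Ensembl release 115 (WBcel235) and gene tables. Edited reads are coverage times share. Whole reads were recovered for 100% of expression values (within 0.01 reads). limma 3.58.1 with a trend was fitted on log2(normalized count + 1) for genes with a mean of at least 10, with Benjamini-Hochberg adjustment, because these values are normalized. DESeq2 1.42.0 and edgeR 4.0.16 (quasi-likelihood) ran on the recovered reads in R 4.3.3. Fisher's exact tests (two-sided) compared replicates. Both tests were tested on simulated data. Depth per library is given with the results. Intervals cover counting error only, since reads were not counted by molecular identifier in the files used. The limma, DESeq2 and edgeR p-values measure the spread between these libraries. Fisher's exact tests compare the reads of single libraries, so their p-values cover counting error only and not that spread.

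Genes named were those with at least 8 sites, those with an unadjusted p under 0.05, and the rest as counts or single values; sites named were the 8 highest with at least 20 reads and the 3 on each side of the confidence minimum. Pairs of sites, single replicate differences and neighbouring genes were named after their values were seen. The members and lists were chosen with earlier results of these data known. Alternatives varied how sites were selected (confidence, coverage, replicates, adr-2(-) list), which annotation placed them, and how expression was tested (tool, pseudocount, filter, scaling, replicate block, libraries left out). Computation used SciPy 1.17.1, pandas 2.3.3 and NumPy 2.4.6 in Python 3.11.15. adr-1 was not analysed here.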

Additional observations from a re-analysis of the deposited data

How the results depend on the processing

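The number of chromosome III sites was 246. It was 525 when 2 of 3 replicates sufficed, and 260 to 391 when each replicate was left out in turn (391 without replicate 3). It stayed within 1.5 times of 246 at a confidence minimum of 0.5 (270) or 0.9 (228), at a coverage minimum of 20 reads (191) and with no removal for adr-2(-) (272). The median percent editing of 23.4% became 18.8% at a coverage minimum of 20 reads and 26.9% with each gene counted once. The mean percent editing of 6 of the 10 genes with at least 8 sites moved by more than the SD over replicates at that coverage minimum. The share in 3′ UTRs was 86.9% to 93.1% and the number of sites differing between replicates was 19 to 36 when each replicate was left out, the latter because fewer pairs are compared. Both were chosen after seeing the data. The cause of the other shifts was not tested.

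The count of edited genes called was 0 and their median log2 fold change 0.03 to 0.07 under every test, normalization, pseudocount, filter and left-out library tried. Of 286 log2 fold changes of single genes recomputed, 13 had another sign, in 6 genes whose main value was between -0.03 and 0.06. Over all genes, 29 were called by limma, 127 by DESeq2 and 19 by edgeR, and 8 to 64 without 1 library (8 without wild-type replicate 1 or adr-2(-) replicate 3, 9 and 16 without wild-type replicates 2 and 3, and 64 without adr-2(-) replicate 2). Replicate numbers are shared by the strains, but the labels do not say that they pair libraries. The correlations of deviations of same-numbered libraries were 0.03, -0.22 and 0.38, so the numbers were not taken as pairs. With a replicate block, 0 edited genes were called, the median log2 fold change was 0.06 and 25 genes were called over all. The planned searches for reverse complements near sites and for the base before each site were not run. Depth was limited: 55 sites had fewer than 20 reads in a replicate, and 9 rested on a single edited read in at least 1.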
